A study of Mus musculus with 2 samples.

Results

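The miR-29 family of the mouse gastrocnemius, the large calf muscle, was taken as the 4 microRNA genes Mir29a, Mir29b-1, Mir29b-2 and Mir29c. They were found by matching the Ensembl identifiers of the count tables to these symbols in the GENCODE M21 annotation, and all 4 were present among the 2202 microRNA genes of each table. The samples were small RNA libraries of this muscle from B6CASTF1/J males at 36 days of age, the F1 offspring of a cross between C57BL/6J and wild-derived CAST mice. Both libraries, replicates 1 and 2, form 1 group with no treatment or second condition, and their descriptions number different males, while the labels give both the same donor identifier. They are treated here as separate animals, and if they were not, each SD would be technical. The comparisons are therefore among the family's genes within the muscle and between the 2 libraries. In whole muscle, fewer cells of a type and less RNA per cell cannot be told apart.

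A microRNA is cut from a hairpin transcript and guides repression of messenger RNAs that pair with its seed, bases 2 to 8 from its 5′ end. The miR-29 family is best known as a repressor of collagens and other matrix proteins, and it falls in many fibrotic tissues. In skeletal muscle, miR-29 has been tied to muscle cell differentiation and, for miR-29b, to atrophy through the growth factor Igf1 and the PI3-kinase subunit Pik3r1. Each hairpin can give a microRNA from its 5′ arm (5p) and from its 3′ arm (3p), and the 3p arm is the form usually meant by miR-29.

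The mature 3p sequences are shown because they decide which reads can be assigned to which gene. They come from RefSeq (GRCm38.p6, the assembly also called mm10), where all 4 genes were matched and every hairpin was identical to its GENCODE M21 transcript. Capitals mark the seed.
miR-29a-3p: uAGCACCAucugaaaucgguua
miR-29c-3p: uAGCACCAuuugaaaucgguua
miR-29b-3p: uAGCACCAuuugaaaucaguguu
The seed AGCACCA was shared by 4 arms in the RefSeq table, the 3p arms of these 4 genes, and by no other mature microRNA listed there. With positions counted from the 5′ end, miR-29a-3p differed from miR-29c-3p by C10U alone. From miR-29c-3p to miR-29b-3p there were 3 differences over 22 positions, G18A, U21G and A22U, after 17 identical leading bases.

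Mir29b-1 and Mir29b-2 encode the same miR-29b-3p, so their hairpins are shown with that arm in capitals.
Mir29b-1: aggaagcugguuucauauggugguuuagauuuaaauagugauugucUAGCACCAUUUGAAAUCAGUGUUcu
Mir29b-2: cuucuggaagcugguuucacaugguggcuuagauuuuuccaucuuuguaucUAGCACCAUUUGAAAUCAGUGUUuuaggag
Their longest identical stretch was 25 bases and covered all 23 bases of the 3p arm. The 5p arms tell the loci apart, and capitals mark the bases at which they differ.
miR-29b-1-5p: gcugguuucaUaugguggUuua
miR-29b-2-5p: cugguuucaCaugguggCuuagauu
Counted along miR-29b-1-5p, with miR-29b-2-5p starting opposite its second base, these differences were U11C and U19C.

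A search of all annotated hairpins gave the genes that a full-length read of each arm could match. Exact matches to miR-29b-3p lay in 2 hairpins, Mir29b-1 and Mir29b-2. The arms miR-29a-3p and miR-29c-3p each matched 1 hairpin exactly and, with 1 mismatch allowed, 2 hairpins, Mir29a and Mir29c. All 4 of the family's 5p arms matched 1 hairpin exactly. Mir29c shared its longest stretch, 22 bases, with Mir29b-1, but this began 5 bases before miR-29c-3p and covered 17 of its 22 bases. The deposited tables hold a separate row for reads aligned to several loci, 70.4% of replicate 1's reads and 73.3% of replicate 2's. The layout implies that a read in this row is added to no gene. An exact miR-29b-3p read would then be counted for neither Mir29b locus. The tables do not divide a gene's reads by arm, and the part of this in the Mir29b counts was not tested.

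The family lies in 2 pairs of neighbours. Mir29a (ENSMUSG00000065610.1, chr6:31062660-31062747) and Mir29b-1 (ENSMUSG00000065604.2, chr6:31063023-31063093) are on the minus strand of chromosome 6 in mm10, 275 bases apart. Mir29a overlapped no other annotated gene, and Mir29b-1 overlapped the exon of the long noncoding RNA Gm27019 by 2 bases. Mir29b-2 (ENSMUSG00000065412.3, chr1:195037040-195037120) and Mir29c (ENSMUSG00000065548.1, chr1:195037547-195037634) are on the plus strand of chromosome 1, 426 bases apart. Both of these lie wholly in an exon of the noncoding transcript A330023F24Rik and, on the opposite strand, in an untranslated exon of a transcript of the complement regulator Cd46. The hairpins were 88 bases long for Mir29a and Mir29c, 71 for Mir29b-1 and 81 for Mir29b-2.

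In counted reads, which may leave out miR-29b-3p, Mir29a was the highest member, followed by Mir29c, and the Mir29b loci were far lower. For Mir29a, replicates 1 and 2 had 10209 and 8459 counts, or 2469.0 and 2627 CPM. CPM is a gene's count per 1000000 reads counted on the strand of a microRNA gene. Mir29c had 5344 and 3882 counts, or 1292 and 1206 CPM. By count, the genes stood at places 42 and 37 for Mir29a and 57 and 56 for Mir29c. Places are by counted reads, and other genes whose reads align to several loci may stand lower for that.

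Mir29b-1 had 124 and 83 counts, or 30.0 and 25.8 CPM, and Mir29b-2 had 52 and 32 counts, or 12.6 and 9.94 CPM. Mir29b-1 was in places 221 and 216 and Mir29b-2 in places 255 and 259. All 4 members had at least 10 counts in both libraries, as did 13.4% of the 2202 genes. The ranges of the 4 genes did not overlap, as each gene's lower library was above the next gene's higher one. Per base of hairpin the values were 28.96, 14.2, 0.393 and 0.139 CPM for Mir29a, Mir29c, Mir29b-1 and Mir29b-2. The hairpin lengths, 71 to 88 bases, are too alike to change the order.

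**Figure D1:**
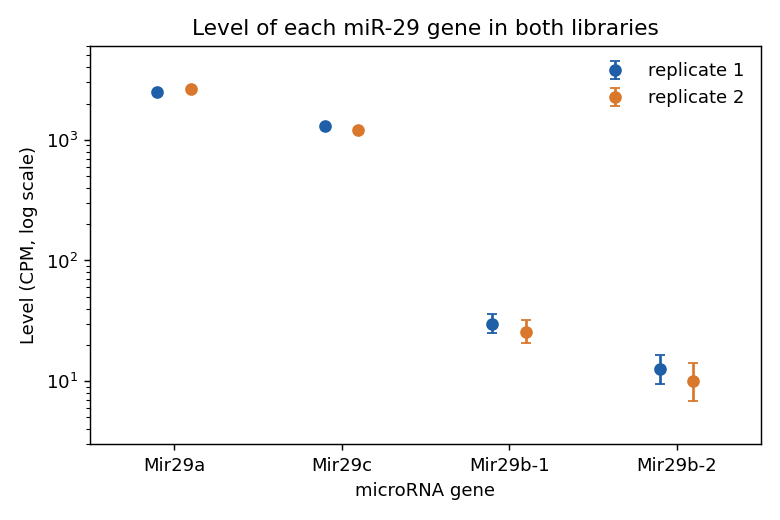
The level of each miR-29 gene (CPM, log axis) is plotted for replicate 1 (blue) and replicate 2 (orange), with exact Clopper-Pearson 95% intervals as bars, which are smaller than the points for Mir29a and Mir29c. Mir29a and Mir29c lie between 1206 and 2627 CPM and both Mir29b loci between 9.94 and 30.0 CPM.

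Counting error was small against these gaps in counted reads. The exact Clopper-Pearson 95% interval of Mir29a ran from 2421 to 2517 CPM in replicate 1 and from 2572 to 2684 in replicate 2. For Mir29b-2, the least counted member, it ran from 9.39 to 16.5 CPM in replicate 1 and from 6.80 to 14.0 in replicate 2. In replicate 1 its upper bound was below the lower bound of Mir29b-1, 24.9 CPM, and in replicate 2 it was below 20.5 CPM. Such intervals take in the error of counting and not that of amplification, as PCR makes copies of a molecule.

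As a family, the 4 genes held 15729 of 4134880 counted reads in replicate 1, or 0.380% (95% interval 0.374 to 0.386). They held 12456 of 3219740 in replicate 2, or 0.387% (0.380 to 0.394). The mean was 0.384% ± 0.00457 (SD, n = 2). Mir29a made up 66.4% ± 2.13 of the family's reads, Mir29c 32.6% ± 1.99, Mir29b-1 0.727% ± 0.0863 and Mir29b-2 0.294% ± 0.0521. Together the Mir29b loci gave 176 reads in replicate 1 and 115 in replicate 2, 1.02% ± 0.138 of the family. Reads aligned to several loci were 882 times the whole family's count in replicate 1 and 986 times in replicate 2, and under the layout's reading the family's share leaves these reads out.

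Ratios between members were formed within each library from counts + 0.5, so scaling drops out, and all 6 pairs kept their direction in both libraries. Mir29a exceeded its neighbour Mir29b-1 82.0-fold in replicate 1 and 101-fold in replicate 2 (log2 ratio 6.51 ± 0.22, SD, n = 2). Mir29c exceeded its neighbour Mir29b-2 102-fold and 119-fold (log2 ratio 6.79 ± 0.16). Thus in each genomic pair the member that encodes miR-29b-3p was counted far below its partner. Under the layout's reading, exact miR-29b-3p reads are in neither Mir29b count, while miR-29a-3p and miR-29c-3p each match 1 hairpin exactly. The ratios are therefore between counted reads, and the part of the gap that this makes up was not tested. With 2 libraries, the smallest two-sided p of an exact sign-flip test is 0.5, so these ratios are set against their SD.

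Across the pairs of neighbours, chromosome 6 was above chromosome 1 in counted reads, which may leave out miR-29b-3p. The summed level of Mir29a and Mir29b-1 was 2576 ± 109 CPM (n = 2), and that of Mir29b-2 and Mir29c was 1260.3 ± 63.2 CPM. Mir29a alone gave 2548 CPM and Mir29c alone 1249 CPM, so the sums mostly restate the ratio of Mir29a to Mir29c. Mir29a exceeded Mir29c 1.91-fold in replicate 1 and 2.18-fold in replicate 2 (log2 ratio 1.03 ± 0.13). Mir29b-1 exceeded Mir29b-2 2.37-fold and 2.57-fold (log2 ratio 1.30 ± 0.08). The last ratio, between loci with the same 3p arm, rests on the fewest reads.

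Mir29a exceeded Mir29b-2 194-fold and 260-fold (log2 ratio 7.81 ± 0.30), and Mir29c exceeded Mir29b-1 42.9-fold and 46.5-fold (log2 ratio 5.48 ± 0.08). These complete the 6 pairs.

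**Figure D2:**
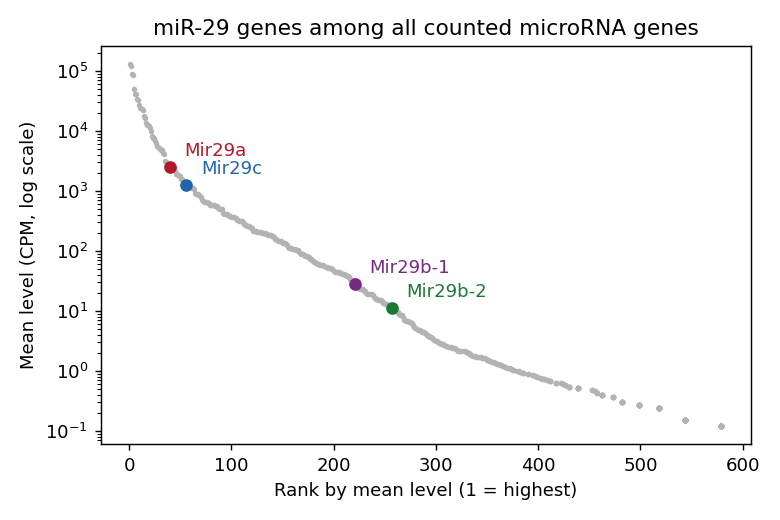
Mean level over both libraries (CPM, log axis) is plotted against the rank of each microRNA gene with a counted read (grey), with the miR-29 genes in colour. Mir29a is in place 40, Mir29c in place 56, Mir29b-1 in place 221 and Mir29b-2 in place 257. Places are by counted reads, which may leave out reads aligned to several loci for any gene.

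Genes of similar level were named by Euclidean distance of log2(CPM + 1) over the 2 libraries, a likeness in level alone. Nearest to Mir29a were Mir145a, a smooth muscle microRNA, at 2501 ± 137 CPM (distance 0.04) and the let-7 relative Mir98 at 2383 ± 47.5 CPM (distance 0.16). Mir29a itself stood at 2548 ± 112 CPM. Nearest to Mir29c, at 1249 ± 61.3 CPM, were Mir93 at 1275 ± 17.0 CPM (distance 0.07) and Mir376c at 1195 ± 147 CPM (distance 0.14).

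Mir29b-1, at 27.9 ± 2.98 CPM, was nearest to Mir187 at 27.2 ± 5.03 CPM and Mir32 at 25.8 ± 4.49 CPM. Mir29b-2, at 11.3 ± 1.86 CPM, was nearest to Mir653 at 11.7 ± 1.21 CPM and Mir331 at 12.1 ± 1.72 CPM. As these genes were picked for their closeness, the lack of a gap between them and the members is not a result.

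Other families also have duplicated loci that share an arm. In each of the 3 pairs examined, Mir26a-1 with Mir26a-2, Mir30c-1 with Mir30c-2 and Mir24-1 with Mir24-2, 1 mature arm was identical, as in Mir29b. Mir26a-2 had 2639 and 1576 counts and Mir26a-1 had 45 and 40, a 47.5-fold gap (log2 ratio 5.57 ± 0.41). Mir24-2 exceeded Mir24-1 5.20-fold (log2 ratio 2.38 ± 0.17), and Mir30c-2 exceeded Mir30c-1 2.28-fold (log2 ratio 1.19 ± 0.08). The Mir29b loci, at 2.47-fold, were closer together than those of Mir26a or Mir24 in both libraries. All 8 loci of these 4 pairs carry the same limit on reads aligned to several loci.

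Over the whole table, 1018 genes had a RefSeq arm matched by symbol, and in 114 of these an arm also lay in another hairpin. Those 114 genes held 1.33% of counted reads in replicate 1 and 1.21% in replicate 2, while the 904 without a shared arm held 75.6% and 73.6%. The remaining 1184 genes, with no RefSeq arm matched, held 23.1% and 25.2%. At least 10 counts in both libraries were reached by 32.5% of the 114 genes and by 25.2% of the 904. Mir29b-1 and Mir29b-2 belong to the first set, and Mir29a and Mir29c to the second.

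The libraries were then compared gene by gene as replicate 2 over replicate 1, on log2(CPM + 1) after TMM, a scaling that trims the most extreme genes. Mir29a had a log2 ratio of 0.26 (interval from counting error 0.21 to 0.30), or 1.19-fold higher in replicate 2. Mir29c had 0.07 (0.01 to 0.13), Mir29b-1 −0.05 (−0.47 to 0.36) and Mir29b-2 −0.16 (−0.86 to 0.49). No member passed 2-fold, beside 5.36% of the 261 genes whose mean level reached 10 CPM. The members are too few to stand apart from that share. The median absolute log2 ratio of the 261 genes was 0.18, and only Mir29a among the members exceeded it.

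The direction of the smaller differences depended on scaling. Scaled to total counted reads, Mir29a was at 0.09 and Mir29c at −0.10, and with DESeq2 size factors they were at 0.31 and 0.12. With TMM 2 of 4 members were higher in replicate 2 (44.1% of all 261 genes), with total counts 1 of 4 (20.3%) and with DESeq2 3 of 4 (51%). Before the pseudocount, TMM shifts all log2 ratios by 0.17 and DESeq2 by 0.22 against total-count scaling, and the low Mir29b-2 moved less, from −0.31 with total counts to −0.16 with TMM. The members' median was 0.01 with TMM beside −0.05 for all 261 genes, and −0.16 beside −0.21 with total counts. Each ratio rests on 1 library a side and has no replicate check.

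**Figure D3:**
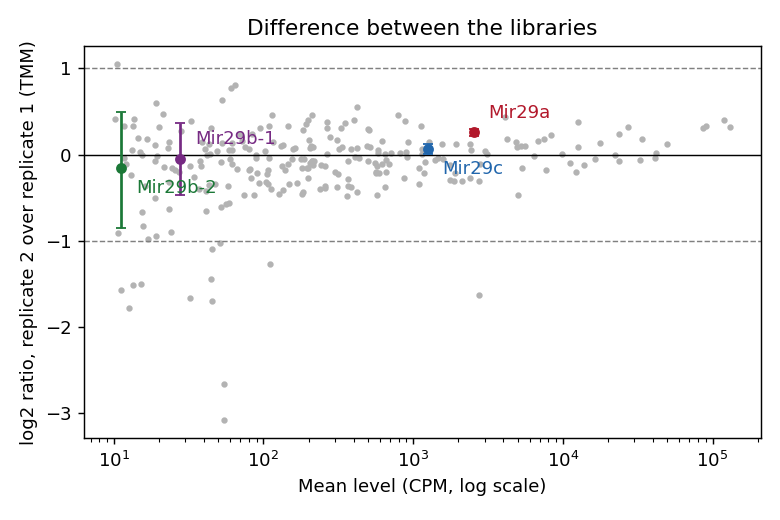
The log2 ratio of replicate 2 over replicate 1 after TMM is plotted against mean level (CPM, log axis) for 261 genes (grey), with the miR-29 genes in colour and bars for counting error. Dashed lines mark 2-fold, and all 4 miR-29 genes lie between them, from −0.16 for Mir29b-2 to 0.26 for Mir29a.

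The balance of Mir29a and Mir29c, which no scaling affects, did shift between libraries. Mir29a made up 65.6% of the summed reads of these genes in replicate 1 (95% interval 64.9 to 66.4) and 68.5% in replicate 2 (67.7 to 69.4). The intervals did not overlap, so the libraries differed beyond counting error. With 1 library a side, spread between animals and between libraries cannot be told apart.

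The family was set beside other microRNAs known from fibrosis or from muscle wasting. Of 13 listed fibrosis microRNAs, 12 had at least 10 counts in both libraries, as did 13.4% of all genes. They were led by the profibrotic Mir21a at 33610.1 ± 228 CPM, Mir101b at 1456 ± 147 CPM and Mir214 at 1095 ± 270.0 CPM. Mir29a was above all of that list but Mir21a, which had 138306 and 108736 counts. This order holds for the counted reads, since in 10 of the 13 genes a run of 20 or more bases recurs in a second hairpin, and these may lack reads aligned to several loci, Mir101b included. Mir29c was below Mir101b and above Mir214 on the mean, though in replicate 1 Mir214 had 1286 CPM beside 1292 for Mir29c. By the same measure Mir29c holds a run of 22 bases that recurs in Mir29b-1, and it may also lack reads. A full-length miR-29c-3p matches 1 hairpin exactly.

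All 8 matched atrophy microRNAs had at least 10 counts in both libraries, as did 13.4% of all genes. They were led by Mir23a, a repressor of the atrophy ligases, at 32620.4 ± 3687 CPM. The skeletal muscle microRNA Mir206 followed at 27262 ± 2019 CPM and Mir27a, a neighbour of Mir23a that targets the growth inhibitor Mstn, at 1935 ± 39.5 CPM. Mir29a was above Mir27a in both libraries and below Mir206, in counted reads. Such a run was found in 5 of the 8 genes, of 20 bases each for Mir23a and Mir27a. None of the 11 fibrosis or 8 atrophy microRNAs whose mean level reached 10 CPM passed 2-fold between libraries. Of all 261 genes only 5.36% did, so these lists are too short to stand apart. Their median log2 ratios after TMM were −0.04 and 0.22, beside −0.05 for all 261 genes. The direction depended on scaling here too. With TMM 6 of the 8 atrophy and 5 of the 11 fibrosis microRNAs were higher in replicate 2 (44.1% of all 261 genes). With total counts 4 of 8 and 4 of 11 were higher (20.3%).

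The tissue label was checked against muscle markers, all 8 of which had at least 10 counts in both libraries (13.4% of all genes). The muscle list held 2.89% ± 0.217 of counted reads, most of them those of Mir206 at 27262 CPM. Of the list's genes 5, the Mir1a and Mir133 loci and Mir486, hold such a run and may lack reads. The list's share is therefore not set against those of other cells. Markers of other cells were present too, with endothelial Mir126a at 9.06% ± 0.737 and the smooth muscle and fibroblast list at 9.06% ± 0.561. Most of that list's reads were those of Mir143, and Mir214 was at 1095 CPM. Mir199b of the same list also holds such a run and may lack reads. Mir338 of the neuron and glia list had 17718 and 3980 counts. Of that list's 9 genes, 3 had at least 10 counts in both libraries, and 6, the loci of Mir124a and Mir9, were at 0 in both. Each of the 6 holds such a run, and these zeros do not show absence. Liver Mir122 had 85 and 15 counts. After TMM, Mir338 and Mir122 were lower in replicate 2 by more than 2-fold, with log2 ratios of −1.63 and −1.78. Of all 261 genes, 5.36% passed 2-fold. How this bears on the miR-29 genes was not tested. Which cells gave the miR-29 reads was not measured.

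No read was counted on the opposite strand of any miR-29 gene in either library, and the column that ignores strand gave the same counts. At these depths 0 counts allow a level of up to 0.726 CPM for replicate 1 and 0.932 CPM for replicate 2.

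The 3′ untranslated regions (3′ UTRs) of the family's best-known target classes were searched for the letters opposite its seed. The files hold no messenger RNA, so this describes the reference sequence and not repression in these muscles. The searched motif was TGGTGCT on the transcript's strand, and TGGTGCTA is the same followed by A. The longest 3′ UTR of each protein-coding gene in GENCODE M21 was used. The windows below give the 15 bases before the first match with the A, or for Pik3r1 the first match without it, and capitals mark the match. They are shown as the stretches that the seed of all 4 miR-29 genes can pair with.
Col1a1, a chain of type I collagen, chr11:94952523-94952545, plus strand: gtgggaaggaatttcTGGTGCTA
Col3a1, type III collagen, chr1:45348967-45348989, plus strand: ttcaaaatgtctcaaTGGTGCTA
Eln, elastin, chr5:134703736-134703758, minus strand: cgacctcatcaacgtTGGTGCTA
Fbn1, the microfibril protein fibrillin, chr2:125301173-125301195, minus strand: tttctgttgtctgttTGGTGCTA
Igf1, the growth factor, chr10:87931656-87931678, plus strand: tgttttttagtacaaTGGTGCTA
Pik3r1, the PI3-kinase subunit, chr13:101684503-101684524, minus strand: agaggcctttaaccaTGGTGCT

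Of 47 collagen and matrix genes, 27 (57.4%) held TGGTGCT, against 2758 of all 21021 genes with a 3′ UTR (13.1%). The form with the A was held by 18 of the 47 (38.3%) and by 2.86% of all genes. Their median 3′ UTR length was 1049 bases beside 961 for all genes, and they held 0.734 matches per kilobase beside 0.106. These genes were listed because miR-29 is known from collagen repression, so their share is not independent evidence of it.

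Within the list, all 6 type IV collagens of basement membranes held from 1 to 4 matches, and so did all 3 type V collagens. Only 2 of 6 type VI collagens, Col6a2 and Col6a3, held one. These collagen types were singled out after their values were seen. Col5a1, Col4a3 and Col26a1 held 4 each, while 20 of the 47 genes held none, Col1a2 and Sparc among them. A window without the motif says only that these letters are not in the annotated stretch.

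Of 13 growth and atrophy genes, 9 (69.2%) held TGGTGCT, and 15.4% of the list held it followed by A, Igf1 among them. Igf1, the growth factor, held 2 matches and the transcription factor Yy1 held 3. The ubiquitin ligase genes Trim63 and Fbxo32 and the factors Foxo1 and Foxo3 held 1 each. The kinase gene Mtor and the growth inhibitor Mstn held none. The median 3′ UTR of this list was 3608 bases long, beside 961 for all genes, so its share with a match is not set against theirs alone. It held 0.266 matches per kilobase, beside 0.106 for all genes. Several of these genes were listed because work on miR-29 in muscle names them.

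**Figure D4:**
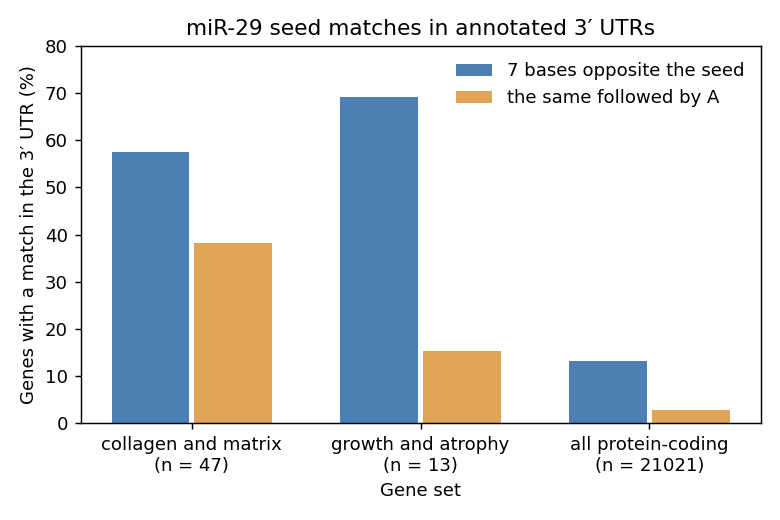
The percentage of genes whose longest annotated 3′ UTR holds the 7 bases opposite the miR-29 seed (blue) or the same followed by A (orange) is plotted for 47 collagen and matrix genes, 13 growth and atrophy genes and 21021 protein-coding genes. Both lists lie above the 13.1% of all genes for the 7 bases, at 57.4% and 69.2%, and the longer form is held by 38.3%, 15.4% and 2.86%. Lengths are not matched, and the median 3′ UTR is 3608 bases for the growth and atrophy genes and 961 for all genes.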

How the data were processed

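The authors deposited 1 table per library of whole-number read counts for 2202 microRNA genes, not normalized. Reads had been placed on mm10 and assigned with GENCODE M21, per the deposited file descriptions. The aligner and the counter were not given in the sources used here, nor was the trimming. Counts on the gene's strand (column 3) were used. The 4 rows that name no gene, 79.0% of reads in replicate 1 and 80.8% in replicate 2, stayed out of library sizes of 4134880 and 3219740. CAST alleles that differ from mm10 were not analysed here.

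CPM, exact Clopper-Pearson intervals (scipy 1.17.1, also used on the share of a gene's reads in replicate 2 for the ratio between libraries) and within-library log2 ratios were computed from these counts. TMM factors came from edgeR 4.0.16 (1.06 and 0.944) and size factors from DESeq2 1.42.0, and the ratio between libraries used a pseudocount of 1 CPM. It was also run on simulated counts in which most genes of that level changed, unlike in these replicates. That run therefore does not show how the ratio behaves here. With 1 group no condition was tested. Named genes were the members, the 2 nearest genes to each in level, the 3 highest of each list, and the duplicated pairs. The members and lists were chosen with earlier results of these data known. Of the listed symbols, Mir628 had no match, and Mir18a and Mir142a were matched as Mir18 and Mir142. The values of 1 listed gene are not reported here. Alternatives were other columns, denominators, scalings, pseudocounts, minimums and left-out libraries.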

Additional observations from a re-analysis of the deposited data

How the results depend on the processing

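The 6 ratios between miR-29 genes kept their direction and moved by less than 1 SD with a pseudocount of 1. The column that ignores strand holds the same counts for these genes, so it could not change the ratios. In single libraries the log2 ratios ran from 0.93 to 1.12 for Mir29a over Mir29c, 6.36 to 6.66 for Mir29a over Mir29b-1, 7.60 to 8.02 for Mir29a over Mir29b-2, 5.42 to 5.54 for Mir29c over Mir29b-1, 6.67 to 6.90 for Mir29c over Mir29b-2 and 1.25 to 1.36 for Mir29b-1 over Mir29b-2. Levels moved with the denominator, which changes by construction and leaves the order as it was. In the column that ignores strand the family held 0.511%, with Mir29a at 3395 CPM, Mir29c at 1663, Mir29b-1 at 37.1 and Mir29b-2 at 14.97. Over all reads the family held 0.0770%, with 511, 251, 5.62 and 2.27 per 1000000 reads in that order. Without the most abundant gene the family held 0.441%, with Mir29a at 2931 CPM, Mir29c at 1436 and Mir29b-1 at 32.0. In single libraries the family held 0.380% to 0.387%. Between libraries, Mir29a moved from 0.26 to 0.090 with total counted reads and to 0.31 with DESeq2 size factors. Mir29c reversed to −0.10 with total counted reads, and Mir29b-1 reversed to 0.0020 with DESeq2 size factors. No member passed 2-fold under any of these scalings, with a pseudocount of 0.5 CPM or in the column that ignores strand. Dropping the minimum level could not change this, as all members were above it. With the A required, the share of 3′ UTRs with a match was 38.3% for collagen and matrix genes, 15.4% for growth and atrophy genes and 2.86% for all genes, since a longer match is rarer. The counts of Mir29b-2, 52 and 32, limit its precision most. No paired analysis was possible because the series has 1 group.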
